A study of Mus musculus with 6 samples.

Results

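Mt1 and Gclm are 2 autosomal stress-defence genes, out of 8973 genes measured by probes with a single gene symbol on the arrays. They were read through the 3 probes whose only platform symbol is one of these names, 1 for Mt1 (feature 19680) and 2 for Gclm (feature 19289, here the first probe, and feature 7606, the second), of 21446 probes in all. The genes were chosen from the measured ratios of female over male RNA, so those ratios are given below as a description and without a test. Mt1 RNA was lower in female than in male embryos in preparations 1 and 2, with a mean log2 ratio of -0.43, and Gclm stood at -0.34 on its first probe and -0.0084 on its second. In the preparation labelled 3 the signs of Mt1 and of the first Gclm probe were the opposite, as were those of the Y-linked gene Eif2s3y and, as means over its arrays, of the 5 probes of Xist.

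Whole mouse embryos at E3.5, the blastocyst stage, were compared by sex in 3 independent preparations, each hybridised on 2 arrays with the dyes exchanged. In every group the mothers were B6C3F1 females aged 8 weeks, given 5 IU of pregnant mare serum gonadotropin and, 48 h later, 5 IU of human chorionic gonadotropin, and the fathers were XGFPY males. The genotype as written places GFP on the father's X chromosome, which daughters receive and sons do not. Embryo sex and that GFP thus cannot be told apart. All embryos were taken at the 4-cell stage 55 h after the second hormone and grown for 38 h in kSOM at 37 °C in 5% CO2, with no treatment, so both sexes had been in culture. RNA came from pools of over 200 embryos of 1 sex, which means that n = 3 counts pools and that the spread between single embryos was not measured. In such pools fewer cells of a type and less RNA per cell cannot be told apart. The arrays give a ratio and no level, so neither the abundance of Mt1 or Gclm RNA nor the presence of blastocyst markers could be read.

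Metallothionein 1, the product of Mt1, is a small cysteine-rich protein that binds zinc and copper and buffers cadmium and oxidants. Its gene and its neighbour Mt2 are switched on by the zinc sensor MTF1 through metal response elements (MRE), and both are known to respond to metals in cultured early mouse embryos. Gclm encodes the modifier subunit of glutamate-cysteine ligase, which carries out the rate-limiting step of glutathione synthesis together with the catalytic subunit encoded by Gclc. Gclm is a classic target of the oxidant-responsive factor NRF2, the product of Nfe2l2, which binds antioxidant response elements (ARE).

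The bases before the RefSeq transcription starts of Mt1, Mt2 and Gclm (GRCm38.p6) are shown because these elements are where the regulators of the genes are known to act. Each window holds 250 bases, 5′ to 3′ on the plus strand, at chr8:94178839-94179088 for Mt1, chr8:94172368-94172617 for Mt2 and chr3:122245307-122245556 for Gclm. Capitals mark the MRE core, TGCACNC or TGCGCNC on either strand, in Mt1 and Mt2, and the ARE core, TGACNNNGC on either strand, in Gclm.
Mt1: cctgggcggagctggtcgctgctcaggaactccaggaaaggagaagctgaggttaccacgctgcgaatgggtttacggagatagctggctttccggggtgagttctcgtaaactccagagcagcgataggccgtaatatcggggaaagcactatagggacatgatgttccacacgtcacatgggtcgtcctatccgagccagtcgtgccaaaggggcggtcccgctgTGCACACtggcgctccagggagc
Mt2: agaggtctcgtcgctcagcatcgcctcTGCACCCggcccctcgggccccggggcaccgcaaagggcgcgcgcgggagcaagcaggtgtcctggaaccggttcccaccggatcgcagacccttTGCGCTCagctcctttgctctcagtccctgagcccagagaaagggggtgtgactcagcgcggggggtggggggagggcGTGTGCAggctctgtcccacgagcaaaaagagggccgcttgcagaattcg
Gclm: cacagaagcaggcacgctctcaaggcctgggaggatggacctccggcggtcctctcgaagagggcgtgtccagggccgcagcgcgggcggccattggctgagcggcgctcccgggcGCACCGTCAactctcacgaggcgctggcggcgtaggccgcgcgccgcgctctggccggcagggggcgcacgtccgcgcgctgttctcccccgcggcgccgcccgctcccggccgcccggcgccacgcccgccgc

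Motifs were counted over the full 300-base windows of the RefSeq promoter table, which run on for 50 bases past the start. Mt1 held 3 MRE cores, of which the 1 marked above lies at -23 to -17 and the others lie past the RefSeq start. All positions hinge on that start, and the start used in these embryos was not examined. Mt2 held 4 MRE cores and also 1 ARE core, at -79 to -71. Gclm held 1 ARE core, at -134 to -126, and 3 matches to the MRE core, the first of which (-138 to -132) overlaps the ARE core. At least 1 MRE core stood in 25.7% of 32851 windows of that length, at least 3 in 1.97% and at least 4 in 0.517%, while 12.4% held an ARE core. The Gclm window is rich in G and C (78.4% of its 250 bases, against 58.8% for Mt1 and 67.6% for Mt2). A match describes the letters and is no measurement of binding.

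The sex labels were checked on genes of the sex chromosomes. Eif2s3y, a Y-linked gene that should be higher in male RNA, stood at -1.75 in preparation 1, -1.76 in preparation 2 and 1.93 in the preparation labelled 3, as log2 ratios of female over male averaged over the arrays of a preparation. Of the 5 probes of Xist, which is transcribed from the X chromosome that females inactivate, 4 were above 0 on every array of preparations 1 and 2, and 4 were below 0 on both arrays of the preparation labelled 3. On these genes that preparation went against its labels. Kdm5d, the other Y-linked gene matched from the list, stood at 0.026, -0.13 and 0.069 in preparations 1, 2 and 3 as labelled, near 0 in each, and did not separate them. Values are given as labelled and also with preparation 3 turned, meaning that the sign of both its arrays was exchanged. A mean over the preparations as labelled sets opposite directions against each other, and a mean with preparation 3 turned rests on the choice to turn it.

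Mt1 had lower signal from female than from male RNA on all 4 arrays of preparations 1 and 2; averaged over dyes, 23.5% of all probes were lower in both of those preparations. In preparation 1 its log2 ratio was -0.089 with female RNA in Cy5 and -0.75 with female RNA in Cy3. In preparation 2 the ratios were -0.22 and -0.67 in the same order. In the preparation labelled 3 they were 0.61 and 0.18, so both arrays stood on the other side of 0 and did not overlap those of the other preparations. Averaged over dyes, the preparations stood at -0.42, -0.44 and 0.40, close to each other in size. The mean was -0.16 ± 0.48 (SD, n = 3) as labelled and -0.42 ± 0.024 (SD, n = 3) with preparation 3 turned, which is 1.34 times as much RNA in male as in female embryos. Turned in this way, Mt1 was below 0 on 6 of 6 arrays, as were 2.20% of all probes, and its mean was the 636th lowest of 21446.

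The Gclm probes disagreed. The first probe was below 0 on every array of preparations 1 and 2, as Mt1 was. Both genes were chosen from these ratios, so nothing is read from that likeness. Its ratios were -0.11 and -0.52 in preparation 1, and -0.22 and -0.49 in preparation 2, for female RNA in Cy5 and in Cy3. In the preparation labelled 3 its arrays lay on either side of 0, at 0.67 and -0.072. Its preparation means were -0.32, -0.35 and 0.30, with a mean of -0.12 ± 0.37 (SD, n = 3) as labelled and -0.32 ± 0.028 with preparation 3 turned, or 1.25 times as much RNA in male embryos. With that preparation turned, 5 of its 6 arrays were below 0.

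The second Gclm probe changed sign with the dye in every preparation. Its ratios were 0.32 and -0.25 in preparation 1, 0.29 and -0.40 in preparation 2, and 0.76 and -0.18 in the preparation labelled 3, again for Cy5 and then Cy3. Every array with female RNA in Cy5 was above 0 and every array with female RNA in Cy3 below it, whichever sex the preparation's markers showed. Averaged over dyes it stood at 0.037, -0.053 and 0.29, with a mean of 0.092 ± 0.18 (SD, n = 3) as labelled and -0.10 ± 0.17 with preparation 3 turned, so it lay within 1 SD of 0 in both readings. The second probe stood above the first by 0.35 in preparation 1 and 0.30 in preparation 2, while in the preparation labelled 3 they differed by -0.0068. The lower Gclm signal in female RNA of preparations 1 and 2 thus rests on 1 of the 2 probes of that gene. Where the probes lie in the transcript was not analysed here.

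**Figure D1:**
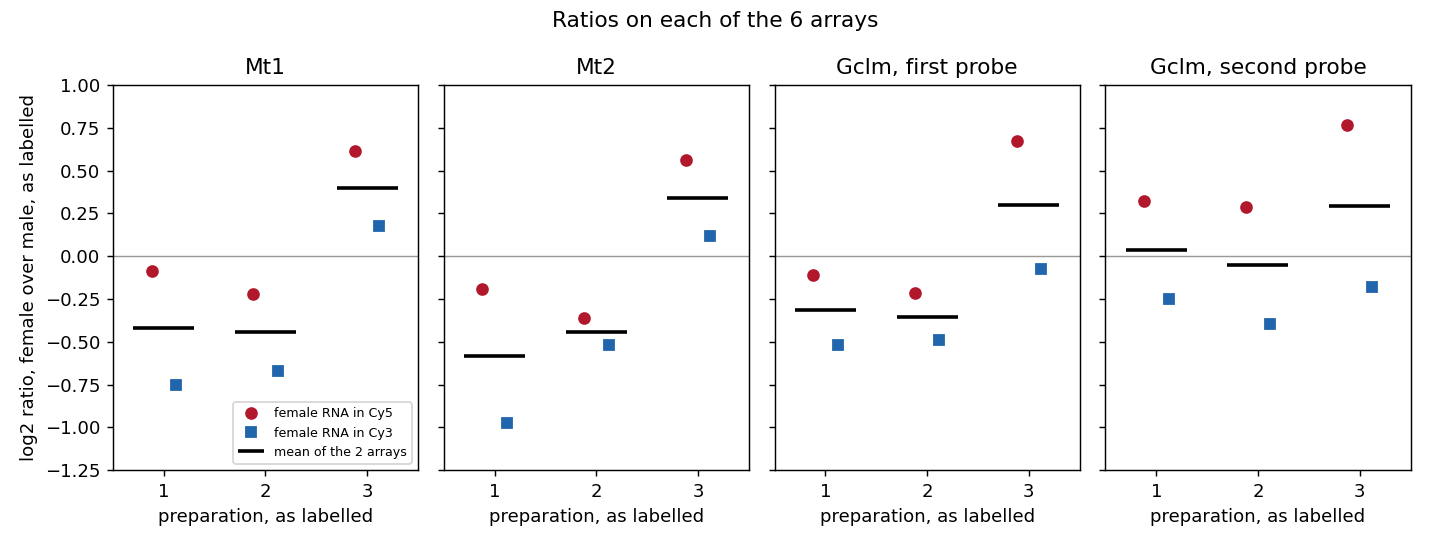
Log2 ratios of female over male RNA, as labelled, for Mt1, its neighbour Mt2 and both Gclm probes, with 1 point per array (circles, female RNA in Cy5; squares, female RNA in Cy3) and a bar for the mean of the arrays of each preparation. Mt1 and Mt2 are below 0 on every array of preparations 1 and 2 and above 0 on both arrays of the preparation labelled 3, while the second Gclm probe lies above 0 in Cy5 and below 0 in Cy3 throughout.

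The fits across all probes put these sizes beside the rest of the array. limma called 0 of 21446 probes (0%) as labelled, where 593 had an unadjusted p under 0.05. It also called 0 (0%) once preparation 3 was turned, where 1632 had one. A fit of the 6 arrays with the preparation as a replicate block and a dye term, again with preparation 3 turned, called 42 probes (0.196%), 38 of them higher in female RNA and 4 lower. Mt1 was 1 of those 4 and neither Gclm probe was among them. As this contrast is the one that chose the members, nothing is read from that count. The same fit as labelled called 0 probes (602 at an unadjusted p under 0.05).

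Mt2, the other metallothionein gene measured, was not a member and followed Mt1. Its ratios for female RNA in Cy5 and in Cy3 were -0.19 and -0.97 in preparation 1, -0.36 and -0.52 in preparation 2, and 0.56 and 0.12 in the preparation labelled 3. All 4 arrays of preparations 1 and 2 were below 0 and both of the preparation labelled 3 above it. The preparation means were -0.58, -0.44 and 0.34, which gives -0.23 ± 0.50 (SD, n = 3) as labelled and -0.45 ± 0.12 with preparation 3 turned. Mt2 was not called as labelled or with preparation 3 turned (limma adjusted p = 0.555). Nor was it called with the replicate block and dye term as well (limma adjusted p = 0.140). The metallothionein genes are near-identical in places, and a probe of one may also bind RNA of the other, so the pair may not be independent. Mt3, Mt4 and the metal sensor Mtf1 had no probe with a single symbol.

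The partners of Gclm did not show the ratios of its first probe. Gclc, the catalytic subunit of the same enzyme, stood at 0.021, 0.059 and 0.091 in the 3 preparations, or -0.0037 ± 0.078 (SD, n = 3) with preparation 3 turned. Gss, glutathione synthetase, which adds glycine in the second step, stood at 0.16, 0.097 and -0.15, or 0.13 ± 0.033 with preparation 3 turned, on the side opposite to Gclm. Nfe2l2, which encodes NRF2, stood at 0.16, -0.0056 and -0.026, or 0.059 ± 0.086. None of these passed limma's test. Gsr, Keap1 and Slc7a11 had no probe with a single symbol.

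The wider glutathione list, for synthesis, recycling and peroxidases, was measured by 18 probes of 16 genes out of 31. Its median with preparation 3 turned was 0.030, beside 0.0045 over all probes, and 0.024 as labelled. Without the Gclm probes, 2 of 16 probes were lower in female RNA in all 3 turned preparations (14.0% of all probes were) and 7 were higher (17.2% of all probes). All list probes carry 1 symbol, and over the 11813 such probes these shares were larger, at 17.0% and 19.3%. Chac2, which breaks glutathione down, had the highest value of the list at 0.48 ± 0.30 and was above 0 on 6 of 6 arrays. No other probe of the list kept 1 sign on all 6 arrays. Gpx1, the main cytosolic glutathione peroxidase, stood at -0.23 ± 0.086. Ggct (0.19 ± 0.22), of glutathione breakdown, and the Slc3a2 probe farthest from 0 (0.16 ± 0.18), for a subunit of the cystine transporter, varied among preparations by as much as their means; a second Slc3a2 probe stood at 0.027 ± 0.063. Among 10 probes of glutathione S-transferases, which join glutathione to other molecules, the median was 0.021, with Gsta4 at 0.32 ± 0.075, above 0 on 6 of 6 arrays, Gsto1 at -0.19 ± 0.26, Mgst1 at 0.072 ± 0.14 and Mgst3 at 0.067 ± 0.051. Of those 10 probes Gsta4 alone kept 1 sign on all 6 arrays. limma called 0 probes of either list in the fits above, Gclm included.

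The NRF2 pathway and its known targets were measured by 35 probes of 28 genes out of 40. Their median with preparation 3 turned was 0.011, and 17 of 35 lay below 0. In all 3 turned preparations 7 probes (20%) were lower and 6 (17.1%) higher, beside 14.0% and 17.2% of all probes. Beside 2.20% of all probes and 3.11% of those with 1 symbol, 4 probes (11.4%) were lower in female RNA on all 6 arrays. These were Txnrd1, a thioredoxin reductase, at -0.26 ± 0.13, the ferritin heavy chain gene Fth1 at -0.21 ± 0.077, the NRF2 relative Nfe2l1 at -0.19 ± 0.059, and Mafg, a partner of NRF2 on DNA, at -0.14 ± 0.062. All but Txnrd1 were named after their values were seen, and a second Mafg probe stood at 0.075 ± 0.21. Gsta4 alone was higher on all 6 arrays (2.36% of all probes). Cbr3, a carbonyl reductase (-0.37 ± 0.91), and the probe of Abcc3, an exporter of conjugates, farthest from 0 (-0.23 ± 0.44) had spreads larger than their means. A second Abcc3 probe had the other sign, at 0.10 ± 0.082. The textbook targets Nqo1 (0.040 ± 0.048) and Hmox1 (0.031 ± 0.038), also named after their values were seen, lay near 0. limma called 0 of the 35 probes in the fits above, and the smallest adjusted p with the replicate block and dye term was 0.101.

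Metal handling outside the metallothioneins showed no common sign. Zinc and copper genes had a median of -0.028 over 27 probes of 21 genes. In all 3 turned preparations 3 of these probes were lower (11.1%) and 4 higher (14.8%), beside 14.0% and 17.2% of all probes. On all 6 arrays 0 were lower and 2 higher (7.41%), beside 3.11% and 3.14% of probes with 1 symbol. The zinc importer gene Slc39a6 stood at 0.30 ± 0.18 and Ccs, the copper chaperone of superoxide dismutase, at 0.22 ± 0.035, each above 0 on 6 of 6 arrays. Slc39a9 (-0.25 ± 0.29) and the Slc39a10 probe farthest from 0 (-0.17 ± 0.45), for further zinc transporters, varied more among preparations than their means. The other Slc39a10 probes stood between -0.092 and 0.040. limma called 0 of the 27.

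Of the neighbouring redox lists, the one for thioredoxin, peroxiredoxin and superoxide defence had a median of -0.029 over 22 probes of 20 genes. In all 3 turned preparations 7 of its probes were lower (31.8%) and 2 higher (9.09%), beside 14.0% and 17.2% of all probes. On all 6 arrays 2 were lower (9.09%) and 1 higher (4.55%), beside 3.11% and 3.14% of probes with 1 symbol. The extremes of the list were Prdx4, an endoplasmic reticulum peroxiredoxin, at 0.36 ± 0.10 and above 0 on 6 of 6 arrays, and Txnrd1. Selenow stood at -0.20 ± 0.23, and Sesn2, a stress-induced regulator, at -0.19 ± 0.052 and below 0 on 6 of 6 arrays. Genes that supply cysteine through the methionine cycle had a median of 0.033 over 14 probes of 13 genes. In all 3 turned preparations 1 of the 14 was lower (7.14%) and 4 were higher (28.6%). On all 6 arrays 0 were lower and 2, Ahcy and Bhmt2, were higher (14.3%). There Ahcy, which clears S-adenosylhomocysteine, stood at 0.26 ± 0.0044, Bhmt2 at 0.24 ± 0.17, Bhmt at 0.17 ± 0.11 and Mat2b at 0.14 ± 0.22. Genes of the oxidative, hypoxic and metal stress response had a median of 0.021 over 22 probes of 18 genes. In all 3 turned preparations 5 of these probes were lower (22.7%) and 6 higher (27.3%). On all 6 arrays 3 were lower (13.6%, beside 2.20% of all probes and 3.11% of those with 1 symbol) and 0 higher. Ogg1, a repair enzyme for oxidised guanine, stood at -0.27 ± 0.085, Trib3 at 0.26 ± 0.14 and the cell cycle inhibitor Cdkn1a at 0.24 ± 0.11. Xdh, listed with the highest mean of this list (0.51 ± 0.88), owed it to 1 array of the preparation labelled 3. That array, with female RNA in Cy5, stood at -3.05 as labelled, and every other array stood at 0. limma called 0 probes of these 3 lists.

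**Figure D2:**
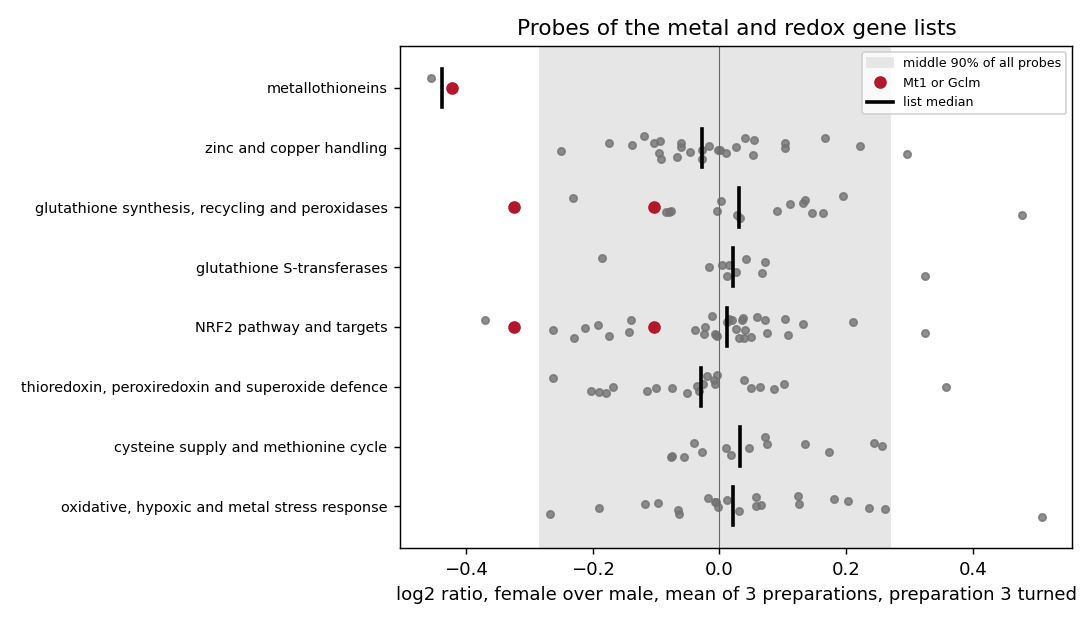
Log2 ratio of female over male RNA for each probe of 8 gene lists, as the mean of 3 preparations with preparation 3 turned (grey, list members; red, Mt1 or Gclm; black bar, list median; band, middle 90% of all probes). Both metallothionein probes and the first Gclm probe lie left of the band, as does Cbr3. Xdh, Chac2, Prdx4, Gsta4 and Slc39a6 lie right of it. The medians of the lists other than the metallothioneins lie between -0.029 and 0.033.

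The dye effect, which the choice of the genes did not use, was positive for all member probes. It is the mean of the arrays of a preparation in the deposited direction, Cy5 over Cy3, where the sexes cancel and where turning preparation 3 alters nothing. Mt1 gave 0.33, 0.23 and 0.22 in the 3 preparations (mean 0.26 ± 0.064). The first Gclm probe gave 0.20, 0.14 and 0.37 (0.24 ± 0.12) and the second 0.29, 0.34 and 0.47 (0.37 ± 0.095). Each was on the same side of 0 in 3 of 3 preparations, but limma called none of them (adjusted p = 0.110, 0.164 and 0.0902), nor any of the 21446 probes (0%, with 5671 at an unadjusted p under 0.05). Effects of at least these sizes were common, at 32.2%, 34.7% and 22.5% of all probes. For Mt1 the dye effect was smaller than the sex ratio with preparation 3 turned, and for the second Gclm probe it was more than 3 times as large.

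**Figure D3:**
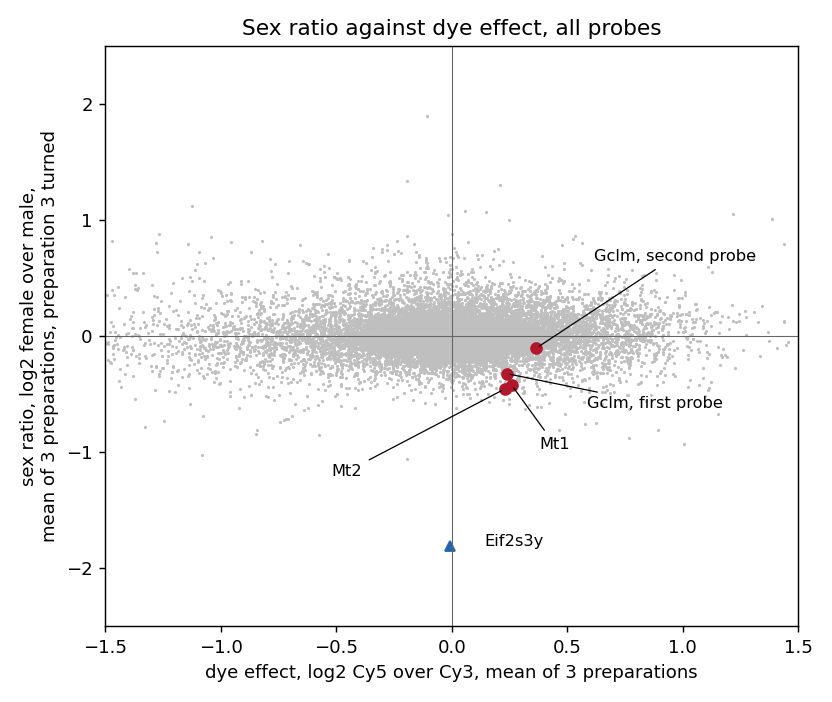
Sex ratio (log2 female over male, preparation 3 turned) against dye effect (log2 Cy5 over Cy3), both as means of 3 preparations, for the 20852 probes within the axes (594 lie outside). The member probes and Mt2 (red) share a dye effect between 0.23 and 0.37, and differ in sex ratio from -0.45 to -0.10, with the Y-linked Eif2s3y (blue) at -1.81.

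The probes of other genes with the nearest pattern were found by the root mean square difference of their log2 ratios over the 6 arrays, which share RNA within a preparation. Nearest to Mt1 were Paxbp1 (difference 0.13), Mt2 (0.13), Cenpj (0.15), the first Gclm probe (0.16) and Kmt5b (0.16). Gclm was chosen together with Mt1 from these ratios, so its place among them is a description only. The second Gclm probe differed from Mt1 by 0.39 and from the first Gclm probe by 0.30. Nearest to the first Gclm probe were Zmiz1 (0.11), Sirt3 (0.12), Gpbp1l1 (0.13), Atp1b1 (0.13) and Shroom3 (0.14). Nearest to the second were Dhx36 (0.086), Ccnd2 (0.091), Fam210a (0.092), Pank3 (0.099) and Mob1b (0.10), whose dye effects ranged from 0.31 to 0.35 and whose sex ratios with preparation 3 turned ranged from -0.16 to -0.049.

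**Figure D4:**
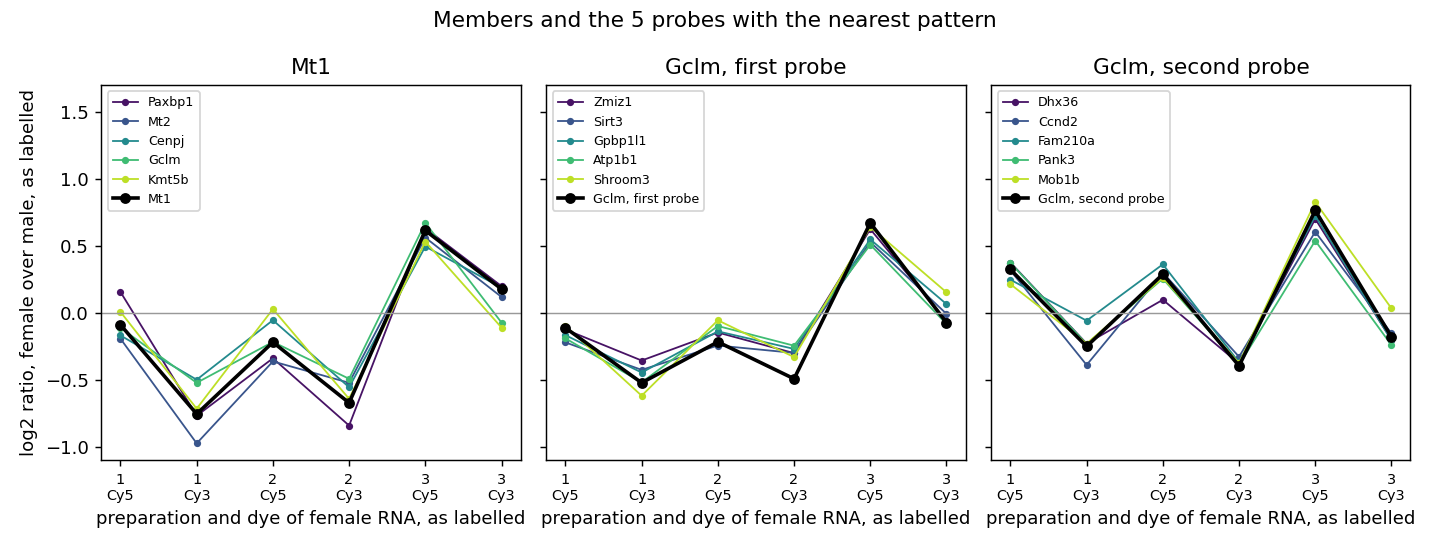
Log2 ratios of female over male RNA, as labelled, on the 6 arrays for Mt1 and both Gclm probes (black) and for the 5 probes of other genes with the smallest root mean square difference from each (colours). Mt2 and the first Gclm probe are among the 5 nearest to Mt1, and the second Gclm probe and its neighbours alternate with the dye in every preparation. Gclm and Mt1 were chosen together from these ratios.

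Markers of the cell types that the embryo pools could hold were read beside these ratios. Inner cell mass markers (10 probes of 9 genes out of 10) had medians of 0.11, 0.12 and -0.11 in the 3 preparations. In all 3 turned preparations 7 of the 10 probes were higher in female RNA and 2 lower, against 17.2% and 14.0% of all probes. The sign of the median was thus opposite to that of Mt1 in each preparation, while the 2 lower probes shared the sign of Mt1. With preparation 3 turned, the fit of preparation means called 0 of the 10, as of all probes. The fit with replicate block and dye term called 1 of the 10, beside 0.196% of all probes. Medians with preparation 3 turned were 0.021 for trophectoderm (13 probes of 9 genes out of 11) and 0.071 for primitive endoderm (10 probes of 7 genes out of 9). In all 3 turned preparations 4 of the 13 trophectoderm probes were lower (30.8%) and 3 higher (23.1%). For primitive endoderm 1 of the 10 probes was lower and 2 were higher. Turned medians were 0.040 for cumulus and granulosa cells (5 of 9 genes measured), -0.038 for oviduct epithelium (2 of 6) and -0.077 for blood cells (3 of 6). The part of such cells in the ratios of Mt1 and Gclm was not tested.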

How the data were processed

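The authors deposited 1 log10 ratio per probe and array, with no stated base, direction or centring. Per the design text, Feature Extraction 7.5 read the scans and Luminator combined the arrays; the sources used here do not give which of these made the ratios. The values stop at exactly -2 and 2 and were taken as log10 of Cy5 over Cy3; fold sizes depend on that. They were multiplied by 3.32 to give log2 ratios, turned to female over male by the dyes in the labels, and averaged over the 2 arrays of a preparation, which hold the same RNA. Each probe's mean over 3 preparations was tested against 0 with limma 3.58.1 (R 4.3.3), with Benjamini-Hochberg adjustment over all 21446 probes at 0.05; the script was tested on simulated data. Preparation numbers pair the arrays, as they mark shared RNA in the labels. No signal intensities were analysed here, so dim probes could not be filtered, and the number of arrays limits the precision. Array medians lay between 0 and 0.0074 (log2).

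Of the probes, 11813 had 1 platform symbol, 559 several and 9074 were not listed; symbols were updated by gene number from RefSeq (GRCm38.p6; 11782 matched). Members and lists were chosen with earlier results of these data known. Named were the member probes, their relatives and regulators, up to 4 genes per list with the largest mean (in either direction) with preparation 3 turned, and the 5 nearest patterns; genes named otherwise are marked as chosen after their values were seen. Values in the lists are with preparation 3 turned unless stated. Alternatives turned or left out preparations, fitted 6 arrays with a replicate block and dye term, used 1 dye orientation, centred arrays, averaged probes per gene and left out probes with an exact 0.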

Additional observations from a re-analysis of the deposited data

How the results depend on the processing

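The count of probes called for sex was 0 as labelled and under 11 of 14 alternatives. It was 42 with preparation 3 turned in the 6-array fit with replicate block and dye term, 28 in that fit with no replicate block, and 632 with only the arrays that carry female RNA in Cy3, where the dye effect does not cancel. The dye effect gave 0 calls under all 6 alternatives run, though turning preparation 3 leaves it unaltered and so is no separate check. Mt1 and the first Gclm probe moved by less than 1 SD over the labelled preparations under every alternative, an SD made wide by the opposite sign of preparation 3. As labelled and with 1 replicate left out in turn, Mt1 ranged from -0.43 (without replicate 3) to -0.013, the first Gclm probe from -0.34 (without replicate 3) to -0.0087 and the second from -0.0084 (without replicate 3) to 0.16. With only Cy5-labelled female RNA, Mt1 and the first Gclm probe had the other sign, at 0.10 and 0.11, which the labels of preparation 3 also enter. The second Gclm probe (0.092 as labelled) was at -0.10 with preparation 3 turned. Both 6-array fits use the same balanced arrays and give that mean by construction. With preparation 3 turned and replicate 1 or 2 left out as well, the probe ranged from -0.17 to -0.13. With the Cy5-labelled female arrays alone it was 0.46, and with the Cy3-labelled ones -0.27. The cause was not tested.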

Other observations

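A further probe (feature 16448) carries 2 gene symbols, Mt1 among them, and was not counted as a member, since its signal cannot be given to either gene. Its log2 ratios of female over male RNA were 0.062, 0.052 and -0.035 in the 3 preparations as labelled, with the sign on single arrays following the dye (above 0 on all 3 arrays with female RNA in Cy5 and below 0 on the others). Its mean with preparation 3 turned was 0.050 ± 0.014 (SD, n = 3), on the other side of 0 from the Mt1 probe at -0.42.

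Ferritin, the iron store whose genes are known NRF2 targets, was measured for both chains. With preparation 3 turned the light chain gene Ftl1, named after its value was seen, stood at -0.14 ± 0.041 beside -0.21 ± 0.077 for the heavy chain gene Fth1. Neither passed limma's test.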
